A study of Mus musculus with 6 samples.

Results

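Gabra2, Gabra4, Gabrb1 and Gabrg1 encode the α2, α4, β1 and γ1 subunits of the GABA-A receptor and lie together on mouse chromosome 5. Their RNA was measured in the prefrontal cortex of BTBR and C57BL/6J mice with one-colour arrays, on which each probe is a 60-base sequence and each array holds 1 mouse. All non-control probes that carry the name of 1 of these 4 genes were taken, which gave 7 of 41174 probes, for 4 of the 20812 genes named on the array. Gabra2 had 3 probes, Gabrg1 had 2, and Gabra4 and Gabrb1 had 1 each. The BTBR group was 3 untreated male BTBR T+ Itpr3tf/J mice and the C57BL/6J group was 3 untreated male wild-type C57BL/6J mice, all 5 months old. BTBR is an inbred strain used as a mouse model of autism, so its mice differ from C57BL/6J at many loci and not at 1 gene. The titles and the genotype field of the BTBR samples give BTBR, while their background field reads C57BL/6J.

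GABA-A receptors are pentameric chloride channels opened by GABA, the main inhibitory transmitter of the cortex. Most are built from α, β and γ subunits, and the α subunit sets much of the receptor's place on the neuron and its response to drugs. Receptors with α2 sit at inhibitory synapses and on the axon initial segment of pyramidal cells, and they carry much of the anxiety-relieving effect of benzodiazepines. C57BL/6J is known to carry a deletion of a single base in an intron of Gabra2 that lowers Gabra2 RNA and protein in that strain's brain. The arrays do not read that base, and its part in the values below was not tested.

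The probes are given by the middle 30 of their 60 bases, 5′ to 3′ as the array files give them, because every value reported is the brightness of these sequences. The files place them on chromosome 5 of the mm9 build, with Gabrb1 on the plus strand and the other genes on the minus strand. Which exon or untranslated region each one matches was not analysed here.
Gabrg1 A_51_P396883, chr5:71143181-71143240: aggtgttagggagtttagaggttttcaatt
Gabrg1 A_52_P547896, chr5:71205492-71205551: ataatttcatattaaaattgacacaataaa
Gabra2 A_52_P336171, chr5:71350022-71350081: aagttagacgtcccaattgtgtctttcaga
Gabra2 A_52_P446146, chr5:71350832-71350891: aatcaaaagtaatccatcaaccttaataaa
Gabra2 A_51_P417507, chr5:71352793-71352852: cccgtgccaaaagagccattgcctttttaa
Gabra4 A_51_P393124, chr5:71962623-71962682: tagagctaggagagatatgtggtacaccct
Gabrb1 A_51_P368757, chr5:72528086-72528145: ccccacagattcccaacagcggtaactgct

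The 3 Gabra2 probes match separate stretches within 3 kb, and the files list each under a different transcript record. Their GC content was 35.0%, 35.0% and 43.3%. The second Gabrg1 probe had the lowest GC content of the 7 probes, 23.3%, and the Gabrb1 probe the highest, 45.0%. In the RefSeq gene order the genes follow each other as Gabrg1, Gabra2, Cox7b2, Gabra4 and Gabrb1, so Cox7b2 is the only gene of another family between the members.

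Probes well above background made up 68.2% to 74.5% of the 41174 per array, and no probe was saturated. Levels below are log2 signals relative to each array's 75th percentile of signal, so 0 is that percentile, and differences are BTBR minus C57BL/6J on that log2 scale with the standard error of the fit. Since each probe has its own brightness, levels of different probes were not read as amounts of one gene against another. The sums of marker levels given below add different probes, so bright probes weigh most in them. Whole tissue was measured, so fewer cells of a type and less RNA per cell cannot be told apart. The 2 slides held both strains, with replicates 1 and 2 on slide 1 and replicate 3 on slide 2. Among markers of the tissue, all 6 excitatory cortical neuron genes were measured and 0 differed. Striatal projection neuron, choroid plexus and olfactory bulb genes stood out on single arrays, and their values are given below.

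Gabra2 RNA was higher in BTBR by all 3 of its probes, by 3.11- to 3.24-fold. Gabra4, Gabrb1 and Gabrg1, its neighbours in the cluster, did not pass the test in either direction, and the largest of their estimated differences was 1.12-fold, lower in BTBR, for Gabrg1. Of the 7 probes, 6 were well above background on at least 3 arrays and entered the fit, and 3 of these passed, all from Gabra2. Across the array 1632 of 30011 entered probes passed (5.44%), 657 of them higher in BTBR (2.19%) and 975 lower (3.25%). By gene, with the brightest probe standing for each, 935 of 16383 genes passed (5.71%), 360 higher (2.2%) and 575 lower (3.51%), and Gabra2 was the 1 member among them.

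The brightest Gabra2 probe, A_52_P336171, had levels of 1.47, 1.79 and 1.45 in BTBR 1 to 3, against -0.01, -0.53 and 0.33 in C57BL/6J 1 to 3. These are processed signals of 2549, 2962 and 3236 in BTBR and 1599, 863 and 1520 in C57BL/6J. Every BTBR mouse lay above every C57BL/6J mouse, with a gap of over 1 log2 unit between the lowest BTBR and the highest C57BL/6J level. The means were 1.57 ± 0.19 in BTBR and -0.07 ± 0.43 in C57BL/6J (SD, n = 3 each). The difference was 1.64 ± 0.23 (95% interval 1.08 to 2.20), or 3.11-fold higher in BTBR (limma adjusted p = 0.0112).

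For A_52_P446146, which was dimmer, levels were -0.63, -0.41 and -0.79 in BTBR 1 to 3, against -2.16, -2.59 and -2.16 in C57BL/6J 1 to 3. Again the strains did not overlap. Its difference was 1.70 ± 0.17 (interval 1.29 to 2.10), 3.24-fold higher in BTBR (limma adjusted p = 0.00255). The third probe, A_51_P417507, had 1.36, 2.01 and 1.26 in BTBR 1 to 3, against -0.31, -0.38 and 0.29 in C57BL/6J 1 to 3. BTBR 2 was the highest BTBR mouse by this probe as by the others. Its difference was 1.68 ± 0.27 (interval 1.04 to 2.32), 3.20-fold higher in BTBR (limma adjusted p = 0.0171). Non-overlap of the strains was seen in 22.8% of all entered probes.

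**Figure D1:**
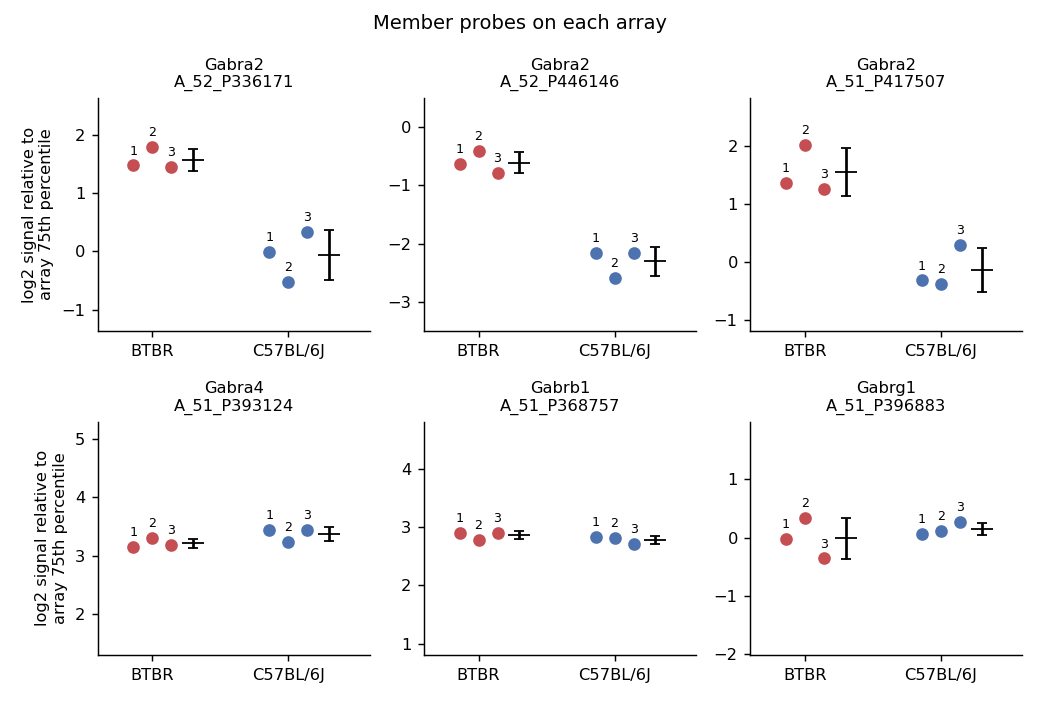
Level of each entered member probe on each array, as log2 signal relative to the array's 75th percentile, with BTBR left of C57BL/6J. Numbers beside the points are replicates, and the bars show mean and SD (n = 3). All panels span the same number of log2 units. The strains are apart in the 3 Gabra2 panels and overlap in the Gabra4, Gabrb1 and Gabrg1 panels.

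The 3 Gabra2 probes gave nearly the same difference although their signals differ. Between probes the strain difference differed by -0.06 (A_52_P336171 minus A_52_P446146), -0.04 (A_52_P336171 minus A_51_P417507) and 0.02 (A_52_P446146 minus A_51_P417507). Their exact permutation p-values over arrays were 0.9, 0.8 and 0.9 (two-sided, 3 against 3 cannot go below 0.1). Set against the C57BL/6J mean of the same probe, single BTBR mice ranged from 2.63-fold (BTBR 3, A_51_P417507) to 4.42-fold (BTBR 2, A_51_P417507). The probes share the same 6 RNA samples, so they are not independent replicates of the strain difference.

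Within slides the size of the Gabra2 difference was unequal. On slide 1, with 2 mice per strain, the 3 probes differed by 1.90, 1.86 and 2.03, in the order in which they were described. On slide 2, with 1 mouse per strain and no test, they differed by 1.12, 1.38 and 0.97. The direction was the same on both slides, and with slide as a block all 3 probes passed (limma adjusted p = 0.0200, 0.00709 and 0.0330). The levels show that C57BL/6J 3, on slide 2, was the highest or joint highest C57BL/6J mouse for all 3 probes.

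That mouse also stood apart in striatal projection neuron markers, a list of 9 genes that includes the dopamine receptors Drd1 and Drd2. The summed linear level of the 9 genes, relative to the 75th percentile, was 18.3, 62.5 and 15.2 in BTBR 1 to 3, against 27.4, 34.4 and 221 in C57BL/6J 1 to 3. By this sum the list was highest in C57BL/6J 3 and next in BTBR 2, the mice with the highest Gabra2 level of each strain. Penk was the brightest gene of the list on every array, so it weighs most in the sum. The median over the list of each gene's deviation from its mean over the arrays kept that order, at 2.46 and 0.61. Adora2a did not follow it, with log2 levels of -0.29 in C57BL/6J 3, -0.09 in BTBR 1 and -0.11 in BTBR 2. Pde10a was 1.75 in BTBR 2, below the 1.84 and 1.89 of C57BL/6J 1 and 2. All 9 genes were measured and 0 differed between strains. Without C57BL/6J 3 and BTBR 2 the Gabra2 probes differed by 1.73, 1.67 and 1.66 (limma adjusted p = 0.0285, 0.0251 and 0.00824). Leaving out C57BL/6J 3 alone raised the difference of A_52_P336171 to 1.84, and leaving out BTBR 2 alone lowered it to 1.53. The removals thus offset each other, and the part of striatal projection neurons in the Gabra2 difference was not tested.

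Other cell types were compared in the same way. Summed excitatory neuron markers were 295, 247 and 275 in BTBR 1 to 3, against 250, 274 and 205 in C57BL/6J 1 to 3. Interneuron markers summed to 107, 123 and 116 in BTBR and 116, 113 and 153 in C57BL/6J, with 0 of 6 past the test. In C57BL/6J 3, Gad1, Gad2 and Slc32a1 were at their highest of the 6 arrays, Pvalb and Vip at their lowest, and Sst between. Its log2 levels were 3.48 for Gad2, 0.71 for Pvalb and -0.71 for Vip. C57BL/6J 1 and 2 had 2.54 and 2.49 for Gad2, 2.08 and 1.89 for Pvalb, and 0.65 and 0.66 for Vip. As the median over the list of each gene's deviation from its mean over the arrays, C57BL/6J 3 had 0.09. C57BL/6J 1 had 0.10 and BTBR 2 had 0.14. The higher sum of C57BL/6J 3 therefore does not show more interneurons in that mouse. Oligodendrocyte markers summed to 102, 93.8 and 104 in BTBR, below the 125, 154 and 143 in C57BL/6J, and 3 of 6 were lower. Of the other lists, 1 of 6 astrocyte markers was lower, 1 of 6 microglia markers was higher and 1 lower, and 0 of 5 endothelial markers passed. Over all genes, 2.2% were higher and 3.51% lower in BTBR. From the choroid plexus list 3 of 5 genes entered and 0 passed, with Ttr and Kcnj13 not entered. The choroid plexus sum was 5.98 in C57BL/6J 1, against 0.32 to 1.95 on the other arrays. From the olfactory bulb and neuroblast list 4 of 5 entered and 0 passed, with Eomes not entered. That list summed to 6.00 in BTBR 2, against 1.39 to 3.07 on the other arrays. The part of the lower oligodendrocyte markers, or of the choroid plexus and olfactory bulb genes, in the Gabra2 difference was not tested.

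Alternative processing left Gabra2 higher in BTBR in every setting run, from 0.97 (slide 2 alone) to 2.03 (slide 1 alone) over the 3 probes, but its side of the threshold changed in some. Normexp background correction gave 1.51, 1.23 and 1.54 with limma adjusted p = 0.0883, 0.224 and 0.114, so 0 of the 3 probes passed. Under that correction the 1st percentile of signal was 504 on C57BL/6J 1 and 56.5 to 84.8 on the other arrays, where the processed signal's 1st percentile was 2.05 to 3.40 on all 6. Normexp without C57BL/6J 1 gave 1.54, 1.50 and 1.48 (adjusted p = 0.0629, 0.0198 and 0.0966).

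Among single mice left out in turn, A_52_P446146 passed in all 6 cases. A_52_P336171 missed the threshold without C57BL/6J 1 (adjusted p = 0.0516). A_51_P417507 missed it without C57BL/6J 1 (0.0781), C57BL/6J 2 (0.0750) or BTBR 1 (0.0548). Gabra2 by gene missed it without C57BL/6J 1 (0.0527), BTBR 1 (0.0505) or BTBR 2 (0.0504). The difference in these cases stayed between 1.41 and 1.89.

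**Figure D2:**
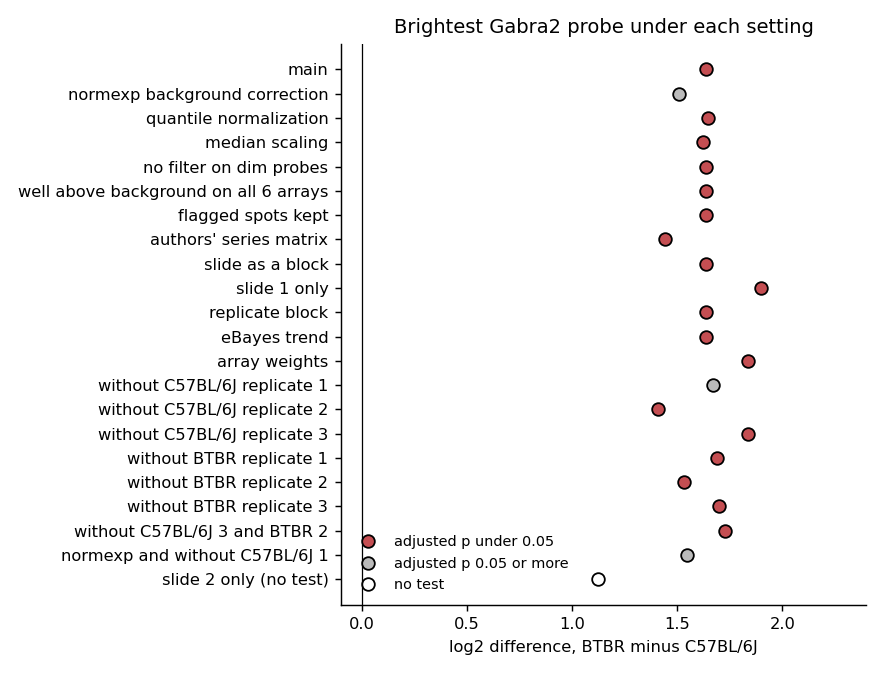
Strain difference of the brightest Gabra2 probe, A_52_P336171, as log2 BTBR minus C57BL/6J, under each setting. Filled red points have an adjusted p under 0.05, grey points do not, and the open point has no test. All points lie above 1 on the log2 axis, and the 3 grey points are normexp, normexp without C57BL/6J 1, and the fit without C57BL/6J 1.

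Gabra4 encodes the α4 subunit, which is found mainly outside synapses together with the δ subunit. Its probe had levels of 3.15, 3.30 and 3.18 in BTBR 1 to 3, against 3.45, 3.23 and 3.44 in C57BL/6J 1 to 3. BTBR 2 lay above C57BL/6J 2, so the strains overlapped. The means were 3.21 ± 0.08 in BTBR and 3.37 ± 0.12 in C57BL/6J (SD, n = 3 each), a difference of -0.16 ± 0.11 (interval -0.43 to 0.11, limma adjusted p = 0.582). The interval leaves out a change of the size seen in Gabra2.

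Gabrb1 encodes the β1 subunit, a member of the class that forms the GABA binding site together with α. Its levels were 2.90, 2.78 and 2.89 in BTBR 1 to 3, against 2.84, 2.80 and 2.71 in C57BL/6J 1 to 3. This was the narrowest spread within strains among the members, 2.86 ± 0.07 in BTBR and 2.78 ± 0.07 in C57BL/6J (SD, n = 3 each). The strains overlapped, with a difference of 0.08 ± 0.10 (interval -0.17 to 0.32, limma adjusted p = 0.799).

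Gabrg1 encodes the γ1 subunit, found in a minority of receptors. Its probe A_51_P396883 is printed at 10 spots on each array. Levels were -0.01, 0.34 and -0.36 in BTBR 1 to 3, against 0.07, 0.12 and 0.28 in C57BL/6J 1 to 3. BTBR 2 was the highest and BTBR 3 the lowest of all 6 mice. The difference was -0.16 ± 0.19 (interval -0.62 to 0.29, limma adjusted p = 0.761). On slide 1 the difference was 0.07 and on slide 2 it was -0.63, so its direction was not the same on both slides, and without BTBR 3 it was 0.01.

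The repeat spots give the error within an array. On each array the SD of the 10 spots was 0.07 to 0.12, while the SD between the 3 BTBR mice was 0.35. In BTBR 3 all 10 spots lay between -0.61 and -0.17, and in BTBR 2 all lay between 0.26 and 0.50. Each mouse had 1 array, so the spread between BTBR mice also holds the error of dissection, labelling and hybridisation, which the spots do not measure. The other Gabrg1 probe, A_52_P547896, was well above background on 0 of 6 arrays, with processed signals of 2.46 to 4.41, and did not enter the fit.

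**Figure D3:**
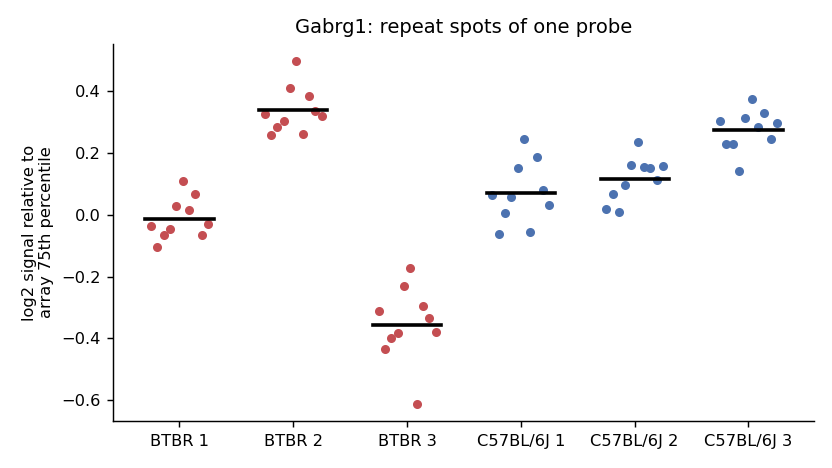
Gabrg1 level at each of the 10 spots of probe A_51_P396883 on each array, as log2 signal relative to the array's 75th percentile, BTBR arrays on the left. Horizontal lines are array means. The spots of BTBR 2 and BTBR 3 form separate groups, the highest and the lowest by array mean.

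Whether Gabra2 differed from its neighbours was tested on the within-array difference between genes. The strain difference of Gabra2 exceeded that of Gabra4 by 1.80, that of Gabrb1 by 1.56 and that of Gabrg1 by 1.80. In each of these comparisons the 3 BTBR values lay above the 3 C57BL/6J values, and each exact permutation p was 0.1, the smallest that 3 against 3 allows (two-sided, 0.2 after Benjamini-Hochberg adjustment over the 6 pairs). This test therefore cannot bring a pair past 0.05 with 3 mice per strain, and no other test of the pairs was run. The pairs without Gabra2 differed by -0.24 (Gabra4 minus Gabrb1, exact p = 0.2), 0.00 (Gabra4 minus Gabrg1, exact p = 1) and 0.24 (Gabrb1 minus Gabrg1, exact p = 0.4).

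Cox7b2, between Gabra2 and Gabra4, was the 1 gene inside the cluster other than Gabra2 that differed. It encodes a form of cytochrome c oxidase subunit VIIb known mainly from testis. Its probe, on the minus strand, was chosen for display because it is the nearest one past the test, and the files give it the span chr5:71834459-71894699, which is 60.2 kb for 60 bases.
Cox7b2 A_51_P361111: tgaaaacagacctgttgcttcaatcaatag

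The Cox7b2 levels were -1.72, -1.59 and -1.69 in BTBR 1 to 3, against -3.30, -3.47 and -3.57 in C57BL/6J 1 to 3. Within each strain the mice were close, and the strains did not overlap. The difference was 1.78 ± 0.12 (interval 1.50 to 2.06), 3.43-fold higher in BTBR (limma adjusted p = 0.000478). Slide 1 gave 1.72 and slide 2 gave 1.88. The strain difference of Gabra2 minus that of Cox7b2 was -0.14 (exact permutation p = 0.8, two-sided, with 0.1 the smallest possible), which does not show that they were equal. Normexp background correction gave Cox7b2 a difference of 0.93 (adjusted p = 0.773), with levels of -1.70, -1.47 and -1.75 in BTBR 1 to 3 against -1.73, -2.95 and -3.02 in C57BL/6J 1 to 3. In that setting C57BL/6J 1 was level with the BTBR mice, and without that array the difference was 1.35 (adjusted p = 0.0156).

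A probe for an unnamed cDNA also lies between the Gabra2 and Cox7b2 probes, 85.2 kb from the brightest Gabra2 probe and on the minus strand. It was dim, with levels of -5.59, -5.17 and -5.26 in BTBR 1 to 3 against -6.72, -6.51 and -5.86 in C57BL/6J 1 to 3. The strains did not overlap, and the difference of 1.02 ± 0.24 did not pass the test (limma adjusted p = 0.0742). It is shown because, with Gabra2 and Cox7b2, it makes up all the entered probes from the first Gabra2 probe up to Gabra4.
A_52_P1172036, chr5:71435247-71435306: ctaaagcgcattaactttagcttccagtta

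In and around the cluster, 120 entered probes of 57 named genes lay within 5 Mb of the outermost member probes. Members were left out of this count, while Cox7b2 and the unnamed cDNA probe inside the cluster were kept. Of these, 4 were higher, Cox7b2 among them, and 4 lower in BTBR (6.67% against 5.44% of all entered probes). The share includes 9430027B09Rik and C330024D21Rik, which were well above background in 1 strain only, and a share without them was not computed. The median difference was 0.07 against 0.04 over all probes. Within 2 Mb 1 of 40 entered probes passed, and it was Cox7b2. The nearest probes past the test on either side of Gabra2, Cox7b2 apart, lay 3310 kb before and 4659 kb after it. Of the 58 entered probes between them, only Cox7b2 passed.

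Among the outer probes past the test, Limch1, an actin-binding regulator of myosin, had 3 probes that disagreed. One was 21.4-fold higher in BTBR (difference 4.42, limma adjusted p = 7.9e-05), while its other probes differed by 0.26 and -0.13. Atp8a1, a phospholipid flippase, was lower by 2 probes (-1.02, adjusted p = 0.0106, and -0.85, adjusted p = 0.0299), while another of its probes differed by 0.01. For the clone gene 9430027B09Rik the probe was well above background on 0 BTBR arrays and all C57BL/6J arrays. This gives an approximate lower bound of 8.42-fold higher in C57BL/6J. For C330024D21Rik the probe was well above background on all BTBR arrays and 0 C57BL/6J arrays, with an approximate lower bound of 6.41-fold higher in BTBR. For these bounds the dimmest log2 level well above background was taken on each of the other strain's arrays. The brighter strain's mean was set against the mean of these levels, so the bounds need not hold for every array. Both probes entered the fit only through the strain in which they were bright, so they are a description and their p-values are not given. They are included in the count of 8 window probes, 6 of which were measured in both strains. A pair of unnamed probes differed by -1.16 (adjusted p = 0.0192) and 0.96 (adjusted p = 0.0416). Sequence differences between the strains under any of these probes, the members' included, were not analysed here.

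**Figure D4:**
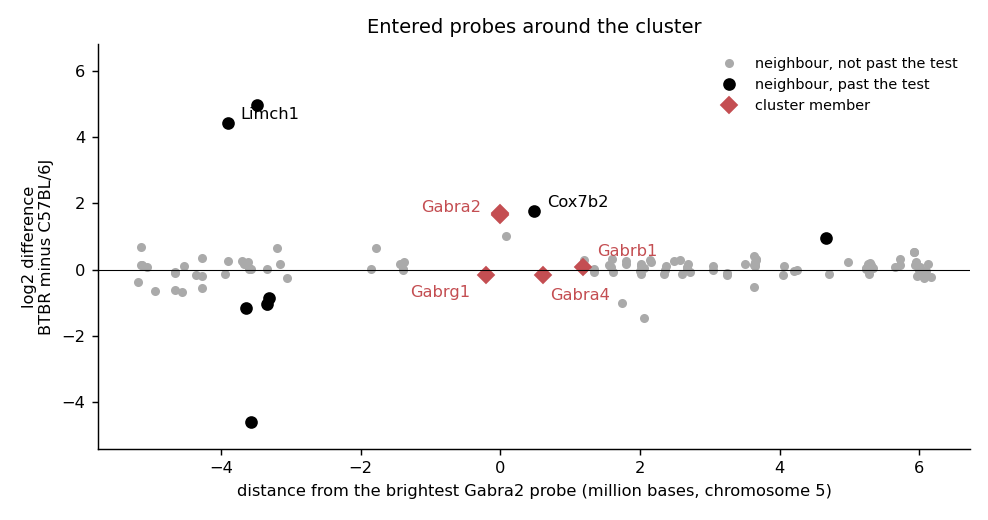
Strain difference of every entered probe on chromosome 5 within 5 Mb of the cluster, as log2 BTBR minus C57BL/6J, against distance from the brightest Gabra2 probe in Mb. Red diamonds are cluster members, black points other probes past the test and grey points the rest. Near 0 on the distance axis only Gabra2 and Cox7b2 stand above the line among probes past the test.

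By their brightest probes, the other GABA-A receptor subunits did not pass the test. Of 15 listed, 14 were on the array and 10 were measured, and 0 passed the test, with 1 of 10 at an unadjusted p under 0.05, against 17.1% of all genes (2806 of 16383). Their median difference was 0.06 against 0.01 over all genes. Gabra6, Gabre, Gabrq and Gabrr2 were not above background on enough arrays to enter.

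Gabrg3, the γ3 subunit, had the smallest p of that list, with a difference of 0.33 ± 0.11 (limma adjusted p = 0.203). Gabrd, the extrasynaptic δ subunit that partners α4, differed by -0.15 (adjusted p = 0.621). These values rest on the brightest probe of each gene. By probe, Gabrg3 A_51_P372497 was higher in BTBR (0.98, adjusted p = 0.0370), against 0.33 for the brightest Gabrg3 probe.

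**Figure D5:**
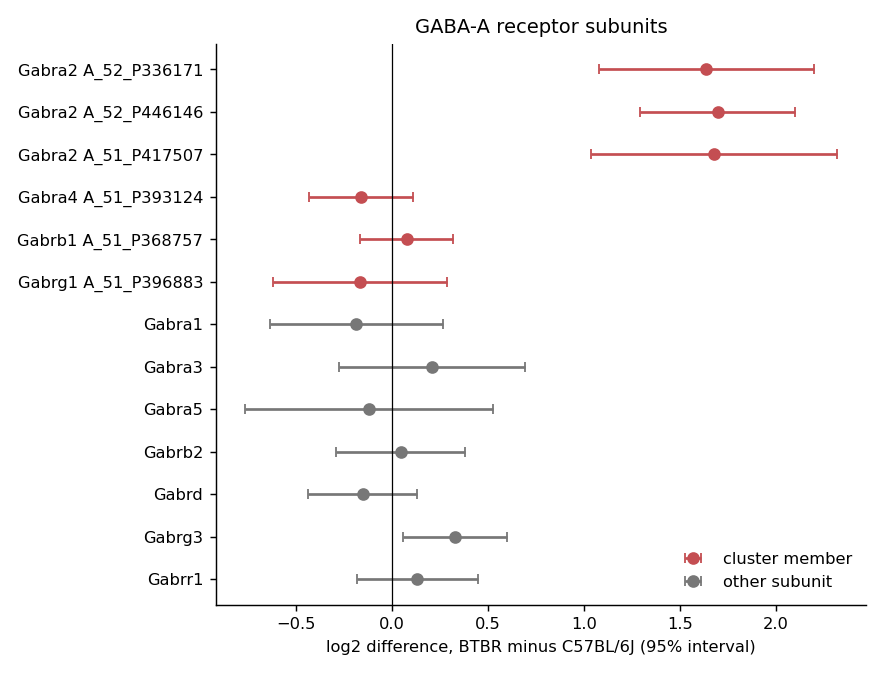
Strain difference of the entered member probes (red) and of 7 other measured GABA-A receptor subunits by their brightest probe (grey), as log2 BTBR minus C57BL/6J with 95% intervals from the fit. The Gabra2 intervals lie above 1, and apart from Gabrg3, whose interval starts at 0.06, all others drawn cover 0. Gabrp, with an interval from -2.84 to 2.99, is not drawn.

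Genes that place GABA-A receptors at synapses or carry them there were measured for all 20 listed, and by their brightest probes 0 passed, with 0 of 20 at an unadjusted p under 0.05, against 17.1% of all genes. Other probes of Plcl1 (-0.84, limma adjusted p = 0.140) and Zdhhc3 (-0.46, adjusted p = 0.130) had an unadjusted p under 0.05. The median difference by brightest probe was -0.04, within a range of -0.25 to 0.23. Insyn1, an inhibitory synapse scaffold protein, differed by 0.22 (limma adjusted p = 0.360) and Gabarapl1, a relative of the GABA-A receptor-associated protein, by 0.17 (adjusted p = 0.435). Trak2, a motor adaptor, differed by -0.19 (adjusted p = 0.547) and Slitrk3, a synaptic adhesion protein, by -0.15 (adjusted p = 0.594).

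GABA synthesis, release, uptake and breakdown were represented by 8 genes, of which 0 passed by their brightest probes, and 0 of 8 had an unadjusted p under 0.05, against 17.1% of all genes. Another probe of the GABA transporter Slc6a11 differed by 0.55 (limma adjusted p = 0.109) with an unadjusted p under 0.05. The median difference was -0.09. Aldh5a1, which completes GABA breakdown, differed by 0.12 (limma adjusted p = 0.603), and the GABA transporters Slc6a13 and Slc6a11 by 0.33 (adjusted p = 0.616) and 0.13 (adjusted p = 0.708). Gad1, the main GABA-synthesising enzyme, differed by -0.17 (adjusted p = 0.694).

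In the list of neuronal chloride balance, which sets the direction of current through GABA-A receptors, 1 of 5 genes was higher in BTBR and 0 lower. Over all genes 2.2% were higher. An unadjusted p under 0.05 was found for 1 of the 5, against 17.1% of all genes. The median difference was 0.17, against 0.01 over all genes. Whole tissue was measured, so the cells that held these RNAs, neurons or others, were not identified. The gene higher in BTBR was Slc12a2, which encodes the chloride importer NKCC1. Its levels were 0.38, 0.39 and 0.36 in BTBR 1 to 3, against -0.23, -0.14 and -0.01 in C57BL/6J 1 to 3. All BTBR mice lay above all C57BL/6J mice, while non-overlap in either direction was seen in 22.8% of all entered probes. The difference was 0.51 ± 0.10, 1.42-fold higher in BTBR (limma adjusted p = 0.0354). The call rested on a small margin, since it held in 8 of 21 alternatives, with differences of 0.45 to 0.58 and adjusted p-values of 0.00118 to 0.163. It was lost when any 1 mouse except C57BL/6J 3 was left out (adjusted p = 0.0903 to 0.161). Slc12a5, the chloride exporter KCC2, differed by 0.17 (adjusted p = 0.494), the chloride channel Clcn2 by 0.18 (adjusted p = 0.664) and the carbonic anhydrase Car7 by 0.08 (adjusted p = 0.833).

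The genes whose levels over the 6 arrays were most like those of Gabra2 were Phldb2 (Pearson r = 0.995), Wtap (0.995), Scrg1 (0.990), Cdh11 (0.990) and Ndufa5 (0.989). They are named as a description of 6 arrays that fall into strains, and 480 of the 14418 genes compared had an r above 0.9. Wtap, a subunit of the RNA m6A methyltransferase complex, was higher in BTBR by 0.85 (limma adjusted p = 0.0183). Cdh11, a cadherin, was higher by 1.07 (adjusted p = 0.0225) and Phldb2, a cortical cytoskeleton protein, by 0.50 (adjusted p = 0.0415). Scrg1 (0.31, adjusted p = 0.123) and Ndufa5 (0.11, adjusted p = 0.591) did not pass the test. The other cluster members had r values with Gabra2 of -0.45 (Gabra4), 0.36 (Gabrb1) and -0.19 (Gabrg1).

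The authors' own processed values, which are log2 with scaling and centring not stated, also gave Gabra2 the largest strain difference among the members. In that matrix the 3 Gabra2 probes differed by 1.44, 1.08 and 1.49. Gabra4 differed by -0.20, Gabrb1 by 0.07 and Gabrg1 by -0.16. Differences were smaller in the matrix, with a slope of 0.549 against the scanner values over 27342 probes (r = 0.895 across probes, which are not independent replicates).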

How the data were processed

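RNA of whole prefrontal cortex from 3 BTBR and 3 C57BL/6J mice was hybridised to 6 Agilent one-colour arrays, and the labels give 3 mice per group and an RNA integrity number of 9. Intensity values on a linear scale, 1 spot to a line, are what the deposited scanner files hold. Per the file headers the scans were read by Feature Extraction 10.7.3.1, while the submitters' processing notes give 9.1. The authors' series matrix holds deposited log2 values, with scaling and centring not given in the sources used here and array medians of 8.82 to 8.83.

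From each log2 processed signal the array's 75th percentile, taken over 41174 non-control probes, was subtracted, and spots of a probe were averaged, without flagged spots where another existed. Probes well above background on at least 3 of 6 arrays entered (30011). Genes were named through RefSeq (GRCm38.p6, names and gene order only), 27816 probes by accession, 5503 by symbol and 380 by synonym, while 853 kept the file's name and 6622 had none. Probe positions are in mm9, as the scanner files give them.

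The comparison between strains used limma 3.58.1 (lmFit and eBayes) in R 4.3.3 with the package data.table, release 1.17.8. P-values were adjusted by Benjamini-Hochberg over all entered probes or genes, with a threshold of 0.05. Pairs of members used an exact permutation test. The fit was tested on simulated data. The members, gene lists and tests were chosen with earlier results of these data known. Named genes were all members, up to 4 genes per list by p, up to 10 window genes past the test, and the 5 genes most correlated with Gabra2. Cox7b2 and the unnamed cDNA were described in more detail after their values were seen. Alternatives covered background, scaling, filters, slide and replicate blocks, the authors' matrix, weights and mice left out. Values of some listed subunit genes are not reported here. The number of arrays limits the precision.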

Additional observations from a re-analysis of the deposited data

How the results depend on the processing

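Gabra2 was higher in BTBR in all alternatives run. A_52_P336171 passed in 17 of 20, A_52_P446146 in 19 of 20, A_51_P417507 in 14 of 20 and Gabra2 by gene in 15 of 21, while Gabra4, Gabrb1 and Gabrg1 passed in 0. Normexp gave Gabra2 1.51, 1.23 and 1.54 by probe and 1.51 by gene (adjusted p = 0.0532), called 170 probes and 199 genes, with 0 in the chloride list and 1 in the chromosome 5 window, and shifted the median of all probes by -0.13. It turned the unnamed cDNA probe to -0.15 and Gabra2 minus Cox7b2 to 0.58. Normexp without C57BL/6J 1, added after seeing the data, gave 1.54 and 1.48 for the probes that missed the threshold, 1.54 by gene (adjusted p = 0.0570), 349 probes and 269 genes. The other alternatives on Cox7b2, the unnamed probe and Slc12a2 were also partly added then.

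Same-number mice of the 2 strains showed no clear pairing. Their deviations from the strain mean correlated at 0.03, -0.17 and -0.08, against -0.21 to 0.27 for mice of different number. Deviations from a mean of 3 mice are tied to each other, so these values cannot exclude pairing. With the replicate numbers as a block, A_51_P417507 differed by 1.68 (adjusted p = 0.0632) and Gabra2 by gene by 1.64 (0.0516). In that setting 922 probes and 508 genes passed. Array weights, which stopped before converging, gave 3928 probes and 4168 genes. Slide as a block left 0 chloride genes. Slide 1 alone turned Gabrg1 to 0.069 by probe and by gene. Slide 2 alone, with no test, gave Gabrg1 -0.63, Gabrb1 0.19 and Gabra2 1.12 by their brightest probes, and 1.38 and 0.97 by the other Gabra2 probes. Without C57BL/6J 3 and BTBR 2, 1008 probes and 0 chloride genes passed. A window of 2 Mb held 1 probe past the test.

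Leaving out 1 mouse at a time gave Gabra2 1.41 to 1.84 (A_52_P336171 and by gene), 1.56 to 1.79 (A_52_P446146) and 1.45 to 1.89 (A_51_P417507). Gabrg1 ranged from -0.34 to 0.0085, the highest without BTBR 3 and of opposite sign. Probes called ranged from 858 (without BTBR 1) to 1472, genes from 436 (without BTBR 1) to 920, window probes from 4 to 7 and chloride genes from 0 to 1.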
